A study of Mus musculus with 6 samples.

Results

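Translation initiation factors load a ribosome onto an mRNA, and eIF2 kinases and eIF4E inhibitors slow that step under stress. Their transcripts were taken from an RNA-seq table of mouse Th17 cultures as the rows whose gene symbol begins with Eif and a digit and that name 1 gene. This gave 54 rows of 10041, all of which passed the filter on low values. A further row, which joins Eif2ak2 with the predicted gene Gm6548, matched the symbol but names several genes and was kept apart. The symbols Eif2c1, Eif2c2 and Eif2c3 are older names of the Argonaute genes Ago1, Ago2 and Ago3, which act in microRNA silencing and not in initiation. They are members by the rule and are described on their own, which leaves 51 rows of initiation genes. These 51 include Eif4a3, Eif1ad and Eif4enif1, whose products act mainly outside ribosome loading.

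Cultures were grown with oligomycin (2.5 ng/ml), an inhibitor of the mitochondrial ATP synthase, or with its vehicle, DMSO (0 ng/ml oligomycin), in 3 libraries each. All started as naive mouse CD4 T cells. For 48 h their receptor was stimulated by plate-bound anti-CD3e at 10 µg/ml and costimulated by anti-CD28 at 1 µg/ml. The cytokines IL-23 at 10 ng/ml, TGF-β1 at 2.5 ng/ml and IL-6 at 20 ng/ml turned them towards the Th17 fate. The study asks how this differentiation depends on oxidative phosphorylation, and the comparison here asks how the mRNAs of the initiation machinery differ between the treatments. The labels do not say whether libraries came from separate mice or cultures, so the p-values measure the spread between these libraries, which may be technical.

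Levels are in FPKM, a count of sequenced fragments divided by transcript length and by library size. Being per length, FPKM allow levels of different genes to be set side by side. Sequencing depth is unknown. Outside small RNA rows the FPKM sums were 397634.6 to 420641.6 in the oligomycin libraries and 421375.6 to 455326.2 in the DMSO libraries. Across genes, which do not count as replicates, pairs of oligomycin libraries correlated at 0.940 to 0.962 and pairs of DMSO libraries at 0.963 to 0.969 on the log2 scale. Of the symbols that mark other cells, 0 of 4 for B cells, 0 of 5 for myeloid cells and 0 of 7 for erythroid cells had a row here, 1 of 3 for NK cells did (Klrd1) and 1 of 2 for CD8 T cells did (Cd8b1). Cd8b1 stood between 2.41 and 3.30 FPKM in all libraries. Klrd1 stood at 5.53, 23.8 and 19.6 FPKM in oligomycin replicates 1, 2 and 3, against 12.8, 34.6 and 31.2 FPKM in DMSO replicates 1, 2 and 3, and its part in any result was not tested. Of 6 marker genes of helper T and Th17 cells, 2 fell and 4 were not called in the limma fit described below for the members. Those that fell were the Th17 cytokine genes Il17a, at 12.5 ± 2.45 FPKM with oligomycin and 247 ± 15.4 FPKM with DMSO (log2 change -4.20, adjusted p = 2.44e-06), and Il17f, at 297 ± 75.5 FPKM with oligomycin and 1469.7 ± 129 FPKM with DMSO (-2.33, adjusted p = 0.000128, SD, n = 3 each). The 4 not called, Cd3e, Cd3d, Cd3g and Cd4, had log2 changes from -0.18 to 0.24.

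As background, initiation begins when eIF2, bound to GTP, carries the initiator methionyl-tRNA to the small ribosomal subunit. eIF1, eIF1A, eIF3 and eIF5 join it there, and eIF4F, made of the cap-binding eIF4E, the helicase eIF4A and the scaffold eIF4G, brings in the mRNA. Kinases that sense amino acid shortage, unfolded protein, haem shortage and mitochondrial stress, or double-stranded RNA phosphorylate eIF2, which then blocks its own exchange factor eIF2B. Bulk translation falls while a few mRNAs such as Atf4 are translated more. A separate brake is set by 4E-BPs, which hold eIF4E when mTORC1 is low. Activated T cells raise their translation steeply, so these routes bear on how they grow.

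The transcripts of the initiation machinery differed modestly and in both directions. In a limma fit of log2(FPKM + 1) across 9986 genes, 6 of the 54 members rose and 7 fell with oligomycin at an adjusted p of 0.05 (Benjamini-Hochberg over all genes tested). The called share of 24.1% compares with 30.2% of all genes tested, of which 14% rose and 16.1% fell. Without the Argonaute rows it was 3 risen and 7 fallen of 51, or 19.6%. Under quantile normalization 11 members rose and 4 fell, and with libraries scaled to equal sums without small RNA rows 8 rose and 5 fell. On the deposited scale Eif4a2, Eif3f and Eif1 rose with the 3 Argonaute rows, and Eif4e3, Eif5a2, Eif5a, Eif1ax, Eif4e, Eif2d and Eif2a fell. The log2 changes ran from -0.87 for Eif4e3 to 0.72 for Eif4a2, with a median of -0.09, against -0.00 over all genes tested. That small median was -0.20 without oligomycin replicate 1, 0.01 without oligomycin replicate 2, 0.08 under quantile normalization and 0.01 when libraries were scaled to equal sums without small RNA rows.

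Summed over the 54 rows, the members held 5632, 4673 and 4778 FPKM in oligomycin replicates 1, 2 and 3, against 5256, 5234 and 5169 FPKM in DMSO replicates 1, 2 and 3. The replicate numbers are those in the table's column names. Oligomycin replicate 1 lay above and replicates 2 and 3 lay below the DMSO libraries. All 3 oligomycin libraries lay above all DMSO libraries for 9 members (16.7%, against 23.1% of all genes tested) and below them for 13 (24.1%, against 24.3%). In bulk RNA, fewer cells of a type and less RNA per cell cannot be told apart. Most of the 13 calls were lost in some fits with 1 library left out, which have fewer libraries to test with. Of all genes, 1769 to 3248 were called in such fits, against 3013 with all libraries. Some calls were lost with little change in size. The log2 change of Eif2d was -0.52 with all libraries and -0.52, -0.53 and -0.52 without DMSO replicate 1, 2 or 3. Others moved more, such as Eif4e, from -0.59 to -0.38 without oligomycin replicate 2. The number of members called was 3, 7 and 2 without DMSO replicate 1, 2 or 3, and 17, 8 and 7 without oligomycin replicate 1, 2 or 3. Eif4e3 was called in all 6 of these fits, Eif3f in all but that without DMSO replicate 3 (adjusted p = 0.0742) and Eif2c1 in all but that without DMSO replicate 1 (adjusted p = 0.0619). Without oligomycin replicate 1, Eif2b1, Eif2s3y, Eif4a3, Eif4g1 and Eif4h were called in addition, without oligomycin replicate 2 Eif3e and Eif5, without oligomycin replicate 3 Eif4ebp2 and without DMSO replicate 2 Eif4ebp3. Eif2b1 and Eif4h were also called without the rows that share a locus or name several genes (adjusted p = 0.04998 and 0.0496).

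**Figure D1:**
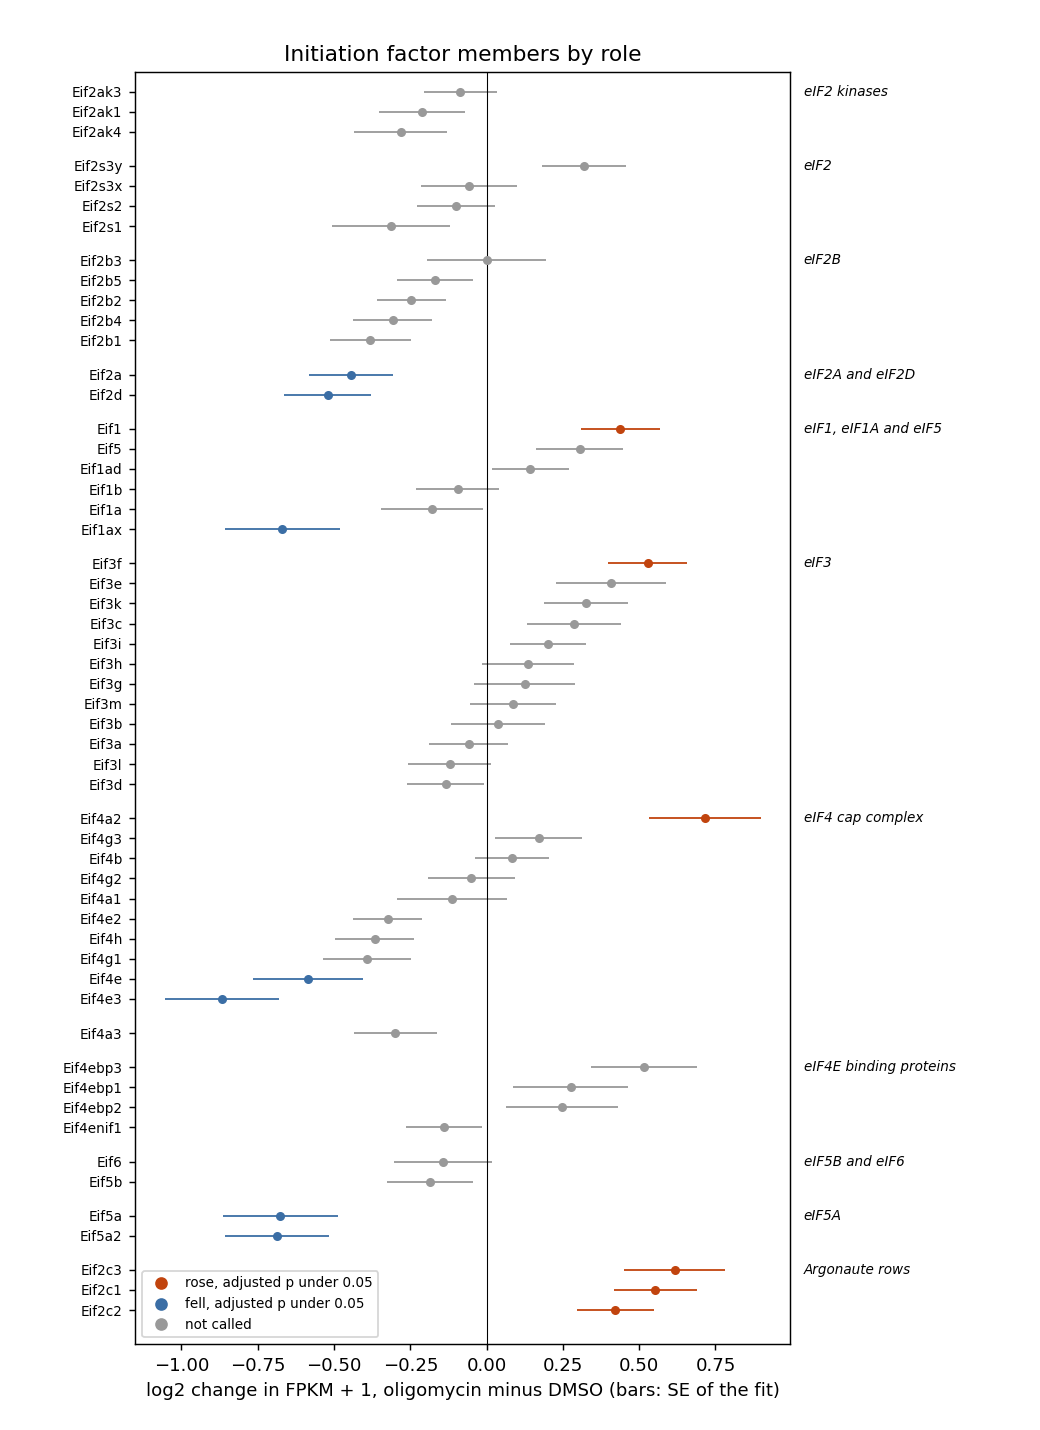
Log2 change in FPKM + 1, oligomycin minus DMSO, for all 54 members in order of their role, with the SE of the limma fit over 3 libraries per group as bars. Rises (orange) and falls (blue) past an adjusted p of 0.05 are scattered over the roles, between -0.87 for Eif4e3 and 0.72 for Eif4a2.

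None of the 3 single-gene rows of eIF2 kinases was called. Eif2ak4 encodes GCN2, the kinase that uncharged tRNA activates. It had 6.12, 5.21 and 5.01 FPKM with oligomycin, against 5.96, 8.37 and 6.33 FPKM with DMSO (log2 change -0.28, SE 0.15, limma adjusted p = 0.194). Eif2ak1 encodes HRI, which responds to haem shortage and to mitochondrial stress. It had 22.3, 18.2 and 17.0 FPKM with oligomycin, against 21.01, 25.5 and 20.5 FPKM with DMSO (-0.21, SE 0.14, adjusted p = 0.279). Eif2ak3 encodes PERK, the kinase of the endoplasmic reticulum. It had 9.28, 8.57 and 10.3 FPKM with oligomycin, against 9.86, 9.52 and 10.7 FPKM with DMSO (-0.09, SE 0.12, adjusted p = 0.607). The groups overlapped for each of these kinases. The row of Eif2ak1 covers a gene model that begins inside the GENCODE M21 gene and shares its locus with Aimp2, so its level is less certain.

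The joint row of Eif2ak2, the gene of the double-stranded RNA sensor PKR, and Gm6548 behaved otherwise. It held 112, 105 and 96.1 FPKM with oligomycin, against 69.7, 68.3 and 58.5 FPKM with DMSO, so the groups stood apart. Its log2 change was 0.67 (SE 0.12, limma adjusted p = 0.00511), and the parts of both genes in it cannot be separated. It is outside the member rule and was added after its values were seen. PKR is itself an interferon-induced kinase.

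The eIF2 trimer carries the tRNA, and its phosphorylated subunit is encoded by Eif2s1. Eif2s1 had 64.4, 36.7 and 53.4 FPKM with oligomycin, against 67.1, 57.6 and 63.8 FPKM with DMSO (log2 change -0.31, SE 0.19, adjusted p = 0.245, limma). Oligomycin replicate 2 was the lowest of the 6 and replicate 1 lay inside the DMSO range. Eif2s2, the β subunit, had 41.9, 32.7 and 35.2 FPKM with oligomycin, against 41.5, 36.0 and 40.1 FPKM with DMSO (adjusted p = 0.570). The γ subunit is encoded on both sex chromosomes, by Eif2s3x and Eif2s3y.

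Most γ subunit FPKM came from the Y copy. Eif2s3y had 49.7, 59.2 and 64.9 FPKM with oligomycin, against 51.8, 41.9 and 44.8 FPKM with DMSO (0.32, SE 0.14, adjusted p = 0.114). Eif2s3x stood at 15.7, 10.4 and 11.8 FPKM with oligomycin, against 12.6, 14.2 and 12.3 FPKM with DMSO (adjusted p = 0.797). The groups overlapped for both copies. Of the 50-base words of the longest Eif2s3x transcript, 36.2% also occur in transcripts of other genes in GENCODE M21. Those genes are Gm2223 and Eif2s3x-ps1 and not the Y copy, so the level of Eif2s3x is less certain. For Eif2s3y the share was 0%. Other Y-linked genes had rows too, and Kdm5d (log2 change 0.62, adjusted p = 0.0183) and Ddx3y (0.56, adjusted p = 0.0350) rose while Uty was not called (0.34, adjusted p = 0.123). Xist had no row.

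The exchange factor eIF2B recharges eIF2 with GTP. None of its 5 subunit genes was called. Their log2 changes were negative for 5 of 5, against 5029 of 9986 over all genes tested. They ran from -0.38 to a value of -6.1e-05 for Eif2b3 that turned positive in 4 alternatives, quantile normalization and equal sums among them. Eif2b1, of the regulatory part, had 36.3, 29.2 and 30.002 FPKM with oligomycin, against 37.2, 46.0 and 41.9 FPKM with DMSO (-0.38, SE 0.13, limma adjusted p = 0.0585). Eif2b2 had 41.6, 42.8 and 43.5 FPKM with oligomycin, against 46.2, 55.6 and 50.9 FPKM with DMSO (adjusted p = 0.128). Each oligomycin library lay below each DMSO library for both of these genes, or 40% of the subunit genes, against 24.3% of all genes tested.

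For the other eIF2B genes the groups overlapped. Eif2b4 had 36.5, 32.4 and 29.5 FPKM with oligomycin, against 36.4, 45.4 and 40.9 FPKM with DMSO (adjusted p = 0.105). Eif2b5, the catalytic subunit, had 66.5, 54.7 and 60.6 FPKM with oligomycin, against 62.7, 74.6 and 67.4 FPKM with DMSO (adjusted p = 0.326). Eif2b3, of the catalytic part too, had 41.7, 23.3 and 32.6 FPKM with oligomycin, against 34.3, 29.2 and 31.6 FPKM with DMSO (adjusted p = 1.0). The mean over the subunits differed by -0.22 on the log2 scale (exact permutation p = 0.20). The subunits of this complex were close in level, with a highest mean (Eif2b5, 64.4 FPKM over 6 libraries) 2.01-fold above the lowest (Eif2b3, 32.1 FPKM).

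Eif2d and Eif2a, genes of factors that can deliver initiator tRNA without eIF2, fell, as did 16.1% of all genes tested. Eif2d, whose product also recycles ribosomes after termination, lies on chromosome 1 (131153207 to 131173471, GRCm38). It had 28.5, 20.0 and 21.6 FPKM with oligomycin, against 33.8, 33.4 and 33.5 FPKM with DMSO. The DMSO values nearly coincided and all oligomycin values lay below them, with a log2 change of -0.52 (SE 0.14, limma adjusted p = 0.0252). Eif2a, the gene of a further tRNA-binding factor, on chromosome 3 (58521971 to 58557501), had 45.9, 37.3 and 46.0 FPKM with oligomycin, against 67.3, 54.0 and 55.6 FPKM with DMSO. Its groups also stood apart (-0.44, SE 0.14, adjusted p = 0.0399). Its row shares a locus with Serp1, a membrane protein gene of the secretory pathway, which had 119, 80.9 and 104 FPKM with oligomycin, against 104, 86.5 and 98.9 FPKM with DMSO.

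The calls of Eif2d and Eif2a were kept without oligomycin replicate 1 (adjusted p = 0.00418 and 0.0383) and lost without any other library (0.0598 to 0.0811 for Eif2d and 0.0604 to 0.139 for Eif2a, limma). The call of Eif2a was also lost under quantile normalization or equal sums without small RNA rows, with an adjusted p of up to 0.103.

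Among the 6 genes of eIF1, eIF1A, eIF5 and their relatives, 1 rose and 1 fell, a called share of 33.3% near the 30.2% of all genes tested. Eif1, which keeps the ribosome scanning until the start codon is met, lies on chromosome 11 (100319996 to 100322096). It rose, with 14.7, 17.7 and 16.0 FPKM with oligomycin, against 10.1, 12.2 and 12.7 FPKM with DMSO (log2 change 0.44, SE 0.13, limma adjusted p = 0.0340). Eif1ax, the X-linked gene of eIF1A, which stabilizes the scanning ribosome, fell to 134, 85.7 and 136 FPKM with oligomycin, against 197, 169 and 191 FPKM with DMSO (-0.67, SE 0.19, adjusted p = 0.0287). It lies on chromosome X (159372195 to 159385699). Neither gene's groups overlapped.

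Their close relatives were not called. Eif1b averaged 63.4 ± 9.68 FPKM with oligomycin and 67.2 ± 2.25 FPKM with DMSO (adjusted p = 0.619). Eif1a averaged 68.9 ± 14.9 FPKM with oligomycin and 77.0 ± 5.21 FPKM with DMSO (adjusted p = 0.438). Eif5, the gene of the GTPase activator of eIF2, averaged 143 ± 21.8 FPKM with oligomycin and 115 ± 6.96 FPKM with DMSO (0.31, SE 0.14, limma adjusted p = 0.135), and it was called under quantile normalization (0.0165) and without oligomycin replicate 2 (0.0400). Its row shares a locus with the snoRNA row Snora28, which stood at 2351, 1748 and 2636 FPKM with oligomycin, against 1241, 966 and 1243 FPKM with DMSO, and whether reads passed between these rows was not tested. Eif1ad, a relative of eIF1A, averaged 55.8 ± 7.66 FPKM with oligomycin and 50.2 ± 0.520 FPKM with DMSO (adjusted p = 0.412, SD, n = 3 each).

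The level of Eif1 is uncertain, since 31.6% of the 50-base words of its longest transcript also occur in other genes' transcripts. Its call was kept without oligomycin replicate 1 (adjusted p = 0.0303) and lost without any other library (0.0602 to 0.117). The call of Eif1ax was lost without DMSO replicate 1 or 3 (0.0899 and 0.0881) and under quantile normalization (0.0829).

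The eIF3 complex, the largest initiation factor, bridges the small subunit and eIF4G. Of its 12 subunit genes with a row, 1 rose, 0 fell and 11 were not called in the limma fit. The called share was 8.33%, against 30.2% of all genes tested, of which 14% rose. Eif3f, the gene that rose, lies on chromosome 7 (108934415 to 108941942). It had 190, 190 and 154 FPKM with oligomycin, against 127, 124 and 118 FPKM with DMSO, a mean 1.45-fold higher (log2 change 0.53, SE 0.13, adjusted p = 0.0162). All 3 oligomycin libraries lay above the DMSO libraries, replicate 3 least. An exact 2-sided permutation test of the mean of the 12 genes gave p = 0.10, the smallest that 3 against 3 libraries allow (adjusted over the 4 complexes compared, 0.40).

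Over all 12 subunits, Eif3f included, 9 log2 changes were positive, against 4957 of 9986 over all genes tested. Their median was 0.13 and their range -0.13 to 0.53. Averaged over the 12 genes, the log2 level stood away from that of all 6 libraries by 0.23, 0.04 and -0.05 with oligomycin, against -0.05, -0.07 and -0.11 with DMSO. All oligomycin libraries lay above all DMSO libraries, but the range among the oligomycin libraries exceeded the difference between the groups. Eif3k and Eif3i averaged 349 ± 32.1 and 323 ± 10.8 FPKM with oligomycin and 278 ± 26.1 and 281 ± 21.6 FPKM with DMSO, without overlap (adjusted p = 0.104 and 0.250). With Eif3f, 25% of the subunit genes lay above without overlap, against 23.1% of all genes tested. Eif3e and Eif3c averaged 172 ± 33.0 and 179 ± 34.8 FPKM with oligomycin and 129 ± 20.2 and 145 ± 7.56 FPKM with DMSO (adjusted p = 0.119 and 0.191).

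The genes with negative changes were Eif3d, the cap-binding subunit, Eif3l and Eif3a, the scaffold, with log2 changes of -0.13, -0.12 and -0.06 (adjusted p from 0.445 to 0.747). These 3 had positive changes of 0.09, 0.10 and 0.14 under quantile normalization, where Eif3c, Eif3e, Eif3i and Eif3k were called as higher besides Eif3f (Eif3k also with equal sums without small RNA rows, adjusted p = 0.0261) and the difference of the subunit mean was 0.34, against 0.15 in the deposited scale. Levels of the subunits were spread 3.38-fold, from 92.8 FPKM for Eif3m to 313 FPKM for Eif3k over the 6 libraries. Eif3b, Eif3g, Eif3h and Eif3m had log2 changes between 0.04 and 0.13.

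The transcription start of Eif3f is shown because it opens with a run of pyrimidines. Such tracts mark TOP mRNAs, whose translation depends on mTORC1. The sequence is the RefSeq annotation on GRCm38.p6 (chr7:108934395-108934444, plus strand), from 20 bases before the start, with the 11 pyrimidines from the start in capitals.
Eif3f: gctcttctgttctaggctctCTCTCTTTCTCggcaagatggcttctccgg
A start with C and 4 further pyrimidines was present at 2 of the 43 members with a RefSeq promoter entry, Eif3f and Eif2s3x (4.65%), and at 2.97% of the 7909 table genes with an entry. Eif3f rose and Eif2s3x was not called.

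**Figure D2:**
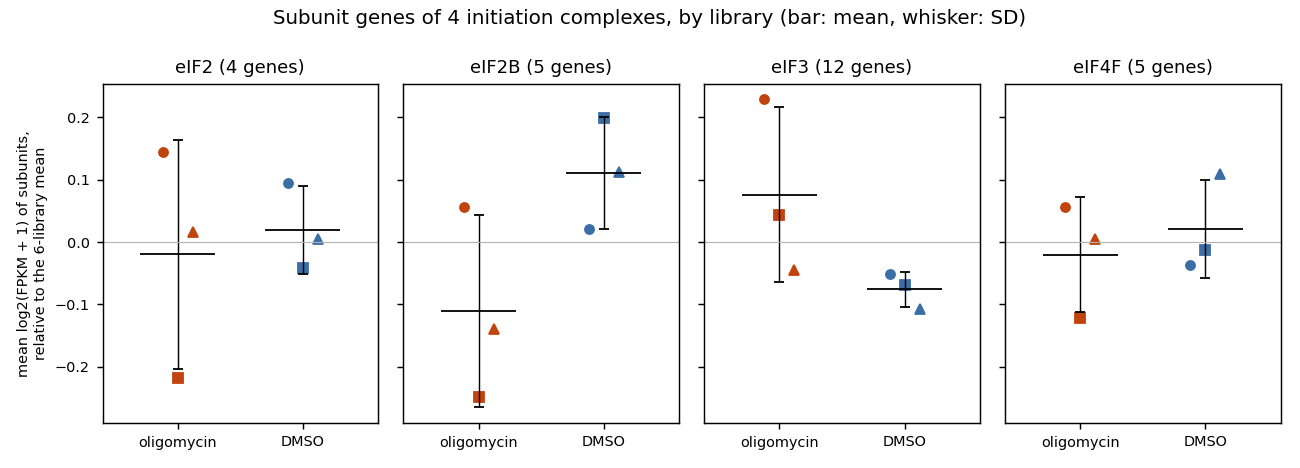
Mean log2(FPKM + 1) of the subunit genes of eIF2, eIF2B, eIF3 and eIF4F in each library relative to the mean of the 6 libraries, with the group mean (bar) and SD (whisker, n = 3). Oligomycin replicate 1 (circle) is the highest point in eIF2 and eIF3, at 0.14 and 0.23, and oligomycin replicate 2 (square) is the lowest in eIF2, eIF2B and eIF4F, at -0.22, -0.25 and -0.12.

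Genes of the cap-binding step held both ends of the members' range of log2 changes. Of 10 genes of eIF4F and its helpers, 1 rose and 2 fell in the limma fit, a called share of 30%, against 30.2% of all genes tested. Negative log2 changes numbered 7 of 10, against 5029 of 9986 over all genes tested. Eif4e, which encodes the cap-binding protein, lies on chromosome 3 (138526191 to 138557599). It fell to 31.1, 18.3 and 26.4 FPKM with oligomycin, against 39.2, 36.0 and 37.5 FPKM with DMSO, a mean 1.49-fold lower (log2 change -0.59, SE 0.18, adjusted p = 0.0390). The groups stood apart, with oligomycin replicate 2 farthest below. At the same locus the microRNA row Mir1956 was listed at 1531 FPKM in oligomycin replicate 2 and at 0 in the other libraries.

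Eif4e3, a cap-binding relative of eIF4E, showed the lowest log2 change of the members. On chromosome 6 (99625137 to 99666771), it had 10.98, 15.1 and 19.3 FPKM with oligomycin, against 27.5, 30.5 and 25.6 FPKM with DMSO, a mean 1.84-fold lower (-0.87, SE 0.19, adjusted p = 0.00996, limma). Here oligomycin replicate 1 was the lowest library. It was called in all 13 alternatives run. Its locus overlaps the coding gene Gm20696, which takes most of the 12.7% of its 50-base words found in other genes' transcripts.

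Eif4e2, whose product binds caps and represses translation, had 55.1, 48.2 and 57.3 FPKM with oligomycin, against 64.9, 68.6 and 68.1 FPKM with DMSO (-0.32, SE 0.11, limma adjusted p = 0.0591). Its groups stood apart, and it was called in 0 of 13 alternatives.

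The helicase genes went separate ways. Eif4a2, on chromosome 16 (23107479 to 23127730), rose to 87.1, 117 and 144 FPKM with oligomycin, against 72.1, 61.8 and 73.0 FPKM with DMSO, a mean 1.68-fold higher (log2 change 0.72, SE 0.18, limma adjusted p = 0.0195). Eif4a1, the paralog usually dominant in growing cells, had 57.8, 35.0 and 48.1 FPKM with oligomycin, against 47.3, 47.0 and 55.6 FPKM with DMSO (-0.11, SE 0.18, adjusted p = 0.656). The ratio of Eif4a2 to Eif4a1 was 1.51, 3.34 and 2.997 with oligomycin, against 1.52, 1.31 and 1.31 with DMSO, so oligomycin replicate 1 stood among the DMSO libraries (exact permutation p = 0.20). Eif4a1 shares 65.3% of its 50-base words with other genes, mainly the pseudogene Eif4a-ps4, so its level and the ratio are uncertain.

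The Eif4a2 locus also holds rows for Rfc4, a replication gene, and for snoRNAs in Eif4a2 introns. Snora81 stood at 611, 1195 and 1044 FPKM with oligomycin, against 206, 370 and 183 FPKM with DMSO. Snord2 stood at 2102, 1002 and 2562 FPKM with oligomycin, against 1336, 2450 and 4550 FPKM with DMSO, with overlap. Rfc4 stood at 33.1, 21.9 and 31.1 FPKM with oligomycin, against 43.8, 40.2 and 44.8 FPKM with DMSO. What these rows share with Eif4a2 in reads was not tested.

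The scaffold genes of eIF4G were not called. Eif4g1 had 136, 123 and 106 FPKM with oligomycin, against 138, 173 and 167 FPKM with DMSO, below in each library (log2 change -0.39, SE 0.14, limma adjusted p = 0.0696). Eif4g3 had 15.01, 18.4 and 13.5 FPKM with oligomycin, against 12.3, 13.7 and 15.1 FPKM with DMSO (adjusted p = 0.386). The ratio of Eif4g3 to Eif4g1 was 0.111, 0.150 and 0.126 with oligomycin, against 0.0888, 0.0790 and 0.0902 with DMSO, higher in each oligomycin library. Eif4g2, which encodes DAP5, a scaffold that lacks the eIF4E site, had 163, 125 and 129 FPKM with oligomycin, against 150, 129 and 151 FPKM with DMSO (adjusted p = 0.809).

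Among the RNA-binding helpers of eIF4A, Eif4h had 248, 211 and 209 FPKM with oligomycin, against 269, 301 and 290 FPKM with DMSO, without overlap (-0.37, SE 0.13, limma adjusted p = 0.0614). Eif4b had 290, 258 and 258 FPKM with oligomycin, against 249, 262 and 249 FPKM with DMSO (adjusted p = 0.618). Eif4a3, a helicase of the exon junction complex rather than of initiation, averaged 74.3 ± 12.4 FPKM with oligomycin and 90.9 ± 0.909 FPKM with DMSO (adjusted p = 0.129).

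The call of Eif4e was kept without oligomycin replicate 1 (limma adjusted p = 0.0122), lost without any other library (0.0575 to 0.108) and lost under quantile normalization or equal sums without small RNA rows, with an adjusted p of up to 0.0636. The call of Eif4a2 was lost when DMSO replicate 2, DMSO replicate 3 or oligomycin replicate 3 was left out (0.0508 to 0.0654).

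**Figure D3:**
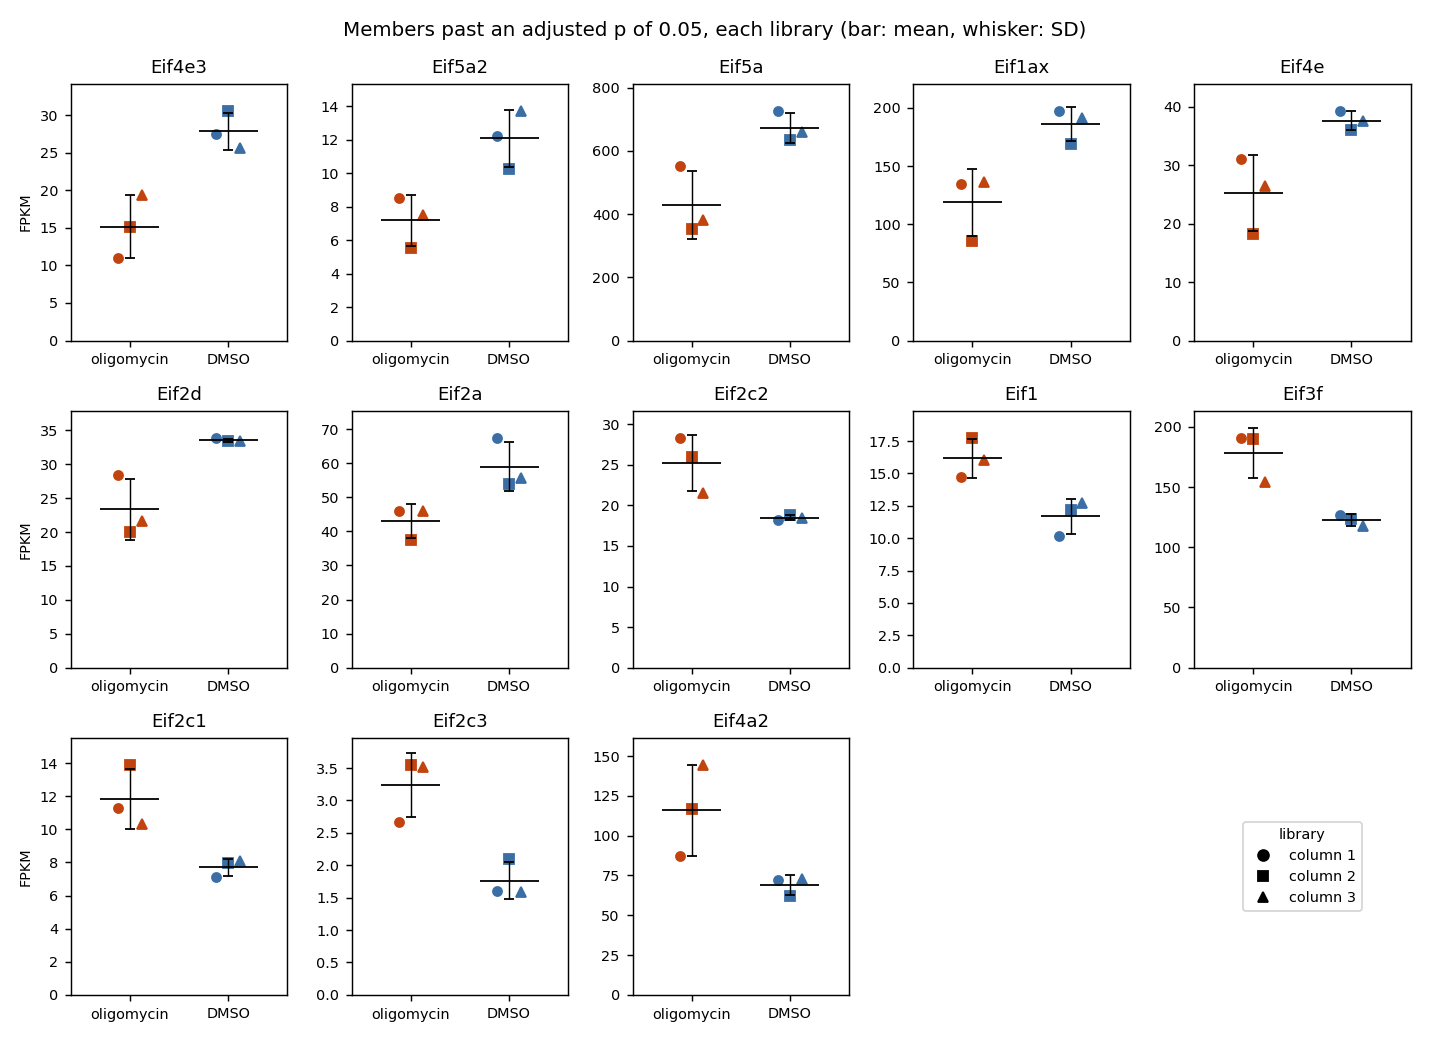
FPKM of the 13 members past an adjusted p of 0.05 in each of the 6 libraries, ordered by log2 change, with the group mean (bar) and SD (whisker, n = 3). The oligomycin and DMSO libraries do not overlap in any of the 13 panels, which were picked by their p-values in these same libraries. Of all genes tested, 23.1% lay above and 24.3% lay below without overlap. Oligomycin replicate 2 is the lowest oligomycin library for Eif5a2, Eif5a, Eif1ax, Eif4e, Eif2d and Eif2a.

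None of the 4 genes of eIF4E binding proteins was called on the deposited scale with all libraries. Eif4ebp1, the 4E-BP that ATF4 can induce, had 118, 75.0 and 75.3 FPKM with oligomycin, against 72.4, 80.3 and 64.3 FPKM with DMSO (log2 change 0.28, SE 0.19, limma adjusted p = 0.296). Only oligomycin replicate 1 lay above the DMSO libraries. Eif4ebp2 had 19.2, 18.6 and 11.8 FPKM with oligomycin, against 12.3, 14.3 and 13.9 FPKM with DMSO (0.25, SE 0.18, adjusted p = 0.333). Eif4ebp3 had 6.91, 7.27 and 6.51 FPKM with oligomycin, against 3.36, 5.86 and 4.62 FPKM with DMSO, higher in each oligomycin library (0.52, SE 0.18, adjusted p = 0.0546). It was called in 3 of 13 alternatives, with equal sums without small RNA rows (0.0279), without rows that share a locus or name several genes (0.0439) and without DMSO replicate 2 (0.0286). Of the Eif4ebp3 50-base words, 65.5% also belong to a joint gene model at its locus. Eif4enif1, which encodes the eIF4E shuttling protein 4E-T, had 36.1, 31.4 and 29.2 FPKM with oligomycin, against 32.1, 36.9 and 37.6 FPKM with DMSO (adjusted p = 0.422), in a row that spans several neighbouring genes.

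The ratio of the inhibitor Eif4ebp1 to its target was higher in each oligomycin library. Of the pair, Eif4e fell (log2 change -0.59) and Eif4ebp1 was not called (0.28). The FPKM ratio of Eif4ebp1 to Eif4e was 3.80, 4.10 and 2.85 with oligomycin, against 1.85, 2.23 and 1.71 with DMSO, a difference of 0.89 on the log2 scale (exact permutation p = 0.10, two-sided, the smallest possible; 0.325 adjusted over 13 ratios). Without oligomycin replicate 1 the difference was 0.83 and without oligomycin replicate 2 it was 0.78. Among the 13 ratios compared, the groups did not overlap for 4, those of Eif4ebp1 to Eif4e, Eif4g3 to Eif4g1, Eif1b to Eif1 and Eif1ax to Eif1a. Each of the 4 had an exact permutation p of 0.10, or 0.325 adjusted over the 13. Eif4e, Eif1 and Eif1ax, which take part in these ratios, were themselves called. Of single genes tested, 23.1% lay above and 24.3% below without overlap, and no such share was computed for ratios of other genes. Eif1ax to Eif1a was 1.65, 1.64 and 1.88 with oligomycin, against 2.52, 2.38 and 2.35 with DMSO. Eif1b to Eif1 was 4.72, 2.95 and 4.26 with oligomycin, against 6.75, 5.29 and 5.40 with DMSO. The ratio of Eif4ebp1 to Eif4ebp2 was 6.15, 4.03 and 6.398 with oligomycin, against 5.91, 5.60 and 4.62 with DMSO (p = 1, exact permutation test).

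**Figure D4:**
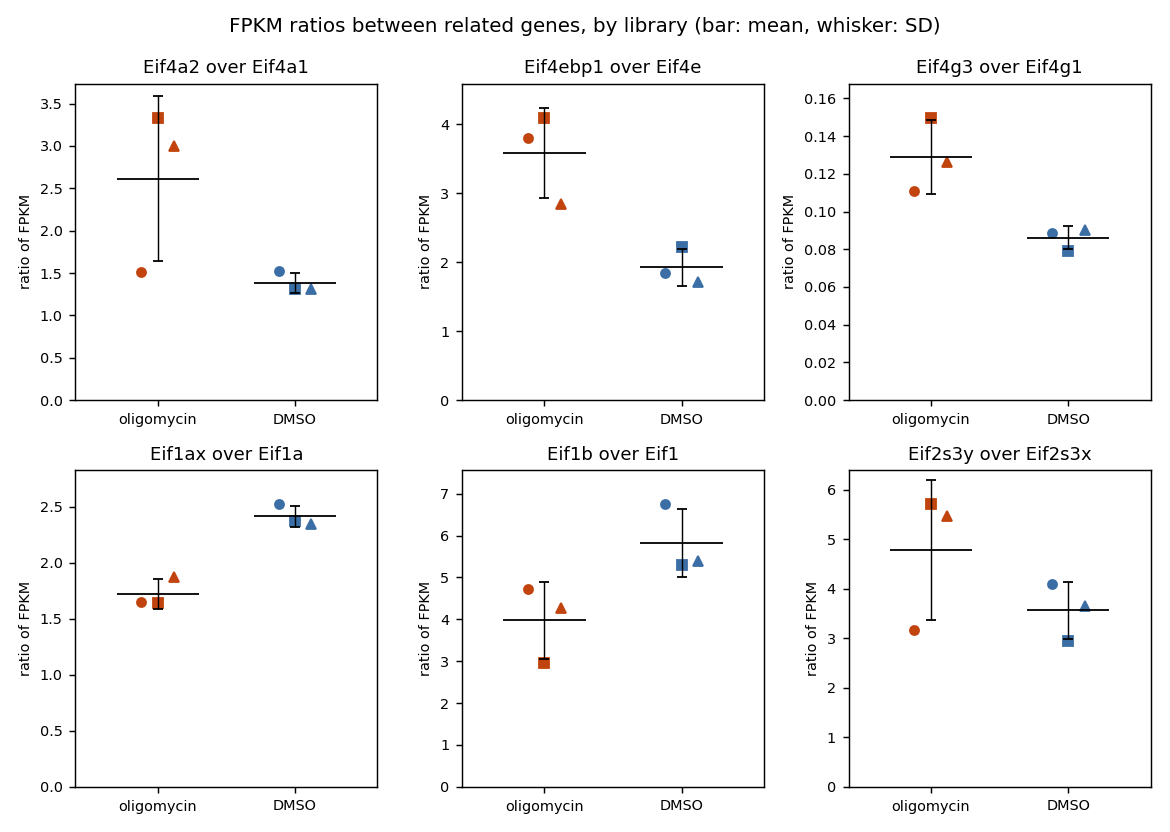
FPKM ratios of 6 pairs of related genes in each library, with the group mean (bar) and SD (whisker, n = 3), on axes that start at 0. Eif4ebp1 over Eif4e and Eif4g3 over Eif4g1 are higher, and Eif1ax over Eif1a and Eif1b over Eif1 lower, in every oligomycin library, while oligomycin replicate 1 of Eif4a2 over Eif4a1 (1.51) lies at the DMSO level.

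The 2 genes of eIF5A, the factor that carries hypusine and helps ribosomes over difficult stretches, fell, as did 16.1% of all genes tested. Eif5a was the most abundant member. On chromosome 11 (69916712 to 69921958), it fell to 551, 354 and 380 FPKM with oligomycin, against 725, 634 and 660 FPKM with DMSO, a mean 1.57-fold lower (log2 change -0.68, SE 0.19, limma adjusted p = 0.0277). Its minor relative Eif5a2, on chromosome 3 (28781311 to 28798846), fell to 8.51, 5.51 and 7.52 FPKM with oligomycin, against 12.3, 10.3 and 13.7 FPKM with DMSO (-0.69, SE 0.17, adjusted p = 0.0180). The ratio of Eif5a2 to Eif5a stayed between 0.0154 and 0.0198 with oligomycin, against 0.0162 to 0.0208 with DMSO (exact permutation p = 0.50).

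The enzymes that make hypusine were not called. Dohh, the hydroxylase, had 51.2, 34.5 and 38.1 FPKM with oligomycin, against 53.2, 59.4 and 56.9 FPKM with DMSO, below in each library (-0.46, SE 0.15, limma adjusted p = 0.0513), and it was called without rows that share a locus or name several genes (0.0392) and without oligomycin replicate 1 (0.00657). Dhps, the synthase, had 26.6, 27.4 and 25.5 FPKM with oligomycin, against 24.1, 24.8 and 29.8 FPKM with DMSO (adjusted p = 0.914). The call of Eif5a was kept without oligomycin replicate 1 (0.00344) and lost without any other library (0.0565 to 0.0942), and that of Eif5a2 was lost without DMSO replicate 1 or 3 (0.0555 and 0.0713).

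The subunit joining factors were not called. Eif5b, the GTPase of the joining step, averaged 4.98 ± 0.735 FPKM with oligomycin and 5.77 ± 0.431 FPKM with DMSO (limma adjusted p = 0.345). The row of Eif5b runs past the end of the GENCODE M21 gene and shares its locus with Rev1, so its level is less certain. Eif6, which keeps the large subunit from joining too early, averaged 181 ± 37.8 FPKM with oligomycin and 197 ± 6.45 FPKM with DMSO (adjusted p = 0.516, SD, n = 3 each).

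At least 1 annotated promoter each of Eif4e, Eif5a and Eif5a2, which fell, holds the E-box CACGTG. This is the site of Myc and related factors that are known to drive genes of translation. Its letters, which read the same on both strands, were searched in the RefSeq promoter entries (250 bases before to 50 after an annotated start, GRCm38.p6). They occur in 10 of 43 members with an entry (23.3%) and in 12.5% of the 7909 table genes with one. By outcome they occur in 3 of 6 fallen members, in 1 of 5 risen members and in 6 of 32 members not called. A gene counts if any of its entries holds them, so genes with several starts are more often counted. The Eif4e E-boxes lie in the entry of a later start and not in the entry at the start of its row. Only some Eif5a entries hold an E-box, and the stretch shown lies downstream of the first annotated start. Of single promoter entries, of which Eif5a has several, 21.1% of those of members and 10.5% of all hold it. A match is a run of letters and was not shown to be bound. The stretches around the E-boxes, in capitals, are shown for these 3 genes and for Eif3f, which rose.
Eif4e, chr3:138527028-138527221, plus strand: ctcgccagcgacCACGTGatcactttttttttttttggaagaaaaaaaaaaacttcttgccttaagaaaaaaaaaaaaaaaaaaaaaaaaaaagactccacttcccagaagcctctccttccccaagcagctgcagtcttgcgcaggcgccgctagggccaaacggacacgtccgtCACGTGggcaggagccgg
Eif5a, chr11:69921443-69921472, minus strand: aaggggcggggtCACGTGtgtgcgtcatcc
Eif5a2, chr3:28781123-28781177, plus strand: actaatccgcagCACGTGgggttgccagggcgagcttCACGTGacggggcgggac
Eif3f, chr7:108934335-108934364, plus strand: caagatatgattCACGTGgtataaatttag
Eif4e and Eif5a2 each hold the E-box 2 times, and Eif3f holds it 1 time, as does the stretch shown for Eif5a. The response element of ATF4 with its C/EBP partner, searched as TGATGCAA on both strands, occurs in 0 of 43 members and in 0.695% of table genes.

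The 3 Argonaute rows rose, as did 14% of all genes tested. Eif2c2 (Ago2), which encodes the slicing Argonaute, lies on chromosome 15 (73101625 to 73184947). It had 28.3, 26.0 and 21.5 FPKM with oligomycin, against 18.2, 18.8 and 18.4 FPKM with DMSO (log2 change 0.42, SE 0.13, limma adjusted p = 0.0353). Eif2c1 (Ago1), on chromosome 4 (126435013 to 126468421), had 11.3, 13.9 and 10.3 FPKM with oligomycin, against 7.09, 7.96 and 8.05 FPKM with DMSO (0.55, SE 0.14, adjusted p = 0.0170). Eif2c3 (Ago3), its neighbour on chromosome 4 (126340678 to 126429542), had 2.67, 3.54 and 3.51 FPKM with oligomycin, against 1.61, 2.09 and 1.59 FPKM with DMSO (0.62, SE 0.16, adjusted p = 0.0235). Every oligomycin library lay above every DMSO library for each of them, as for 23.1% of all genes tested. At most 2.26% of their 50-base words occur in other genes. Eif2c2 was called only without oligomycin replicate 3 (0.0236) among the fits that leave out a library (otherwise 0.0720 to 0.104). For Eif2c3 the call did not survive the loss of DMSO replicate 1, DMSO replicate 3, oligomycin replicate 2 or oligomycin replicate 3 (0.0605 to 0.0873).

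Genes that act with the factors were listed by step, and a list of integrated stress response transcripts, downstream of eIF2, was added. The lists were chosen with earlier results of these data known. Together 9 of 46 with a row rose and 4 fell in the limma fit, 28.3% called against 30.2% of all genes tested. The stress response list of 8 genes gave 7 of the 9 rises. In the other lists the called genes were 1 of 14 (cap, poly(A) tail and eIF4E), 0 of 9 (scanning and recycling), 5 of 13 (eIF2 phosphorylation) and 0 of 2 (hypusine). Partners of the cap, the poly(A) tail and eIF4E had 0 risen and 1 fallen of 14. The one that fell was Cyfip1, which can hold eIF4E, with 4.22, 3.595 and 2.87 FPKM with oligomycin, against 6.12, 6.01 and 5.001 FPKM with DMSO (log2 change -0.56, adjusted p = 0.0276). Its call was lost when DMSO replicate 1, DMSO replicate 2 or oligomycin replicate 3 was left out (0.0855 to 0.0923). Paip1 and Paip2b, genes of proteins that bind the poly(A)-binding protein, averaged 26.0 ± 4.52 and 21.5 ± 1.13 FPKM with oligomycin and 19.3 ± 2.23 and 17.6 ± 1.28 FPKM with DMSO (adjusted p = 0.0834 and 0.0926). Scanning and recycling partners had 0 of 9 called at an adjusted p of 0.05. Those with the smallest p were Abcf1, Mcts1 and Bzw2, with log2 changes of -0.37, -0.32 and 0.24 (adjusted p = 0.0919, 0.0989 and 0.192).

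Partners of eIF2 phosphorylation had 2 risen and 3 fallen of 13, a called share of 38.5%, against 30.2% of all genes tested. Impact, which encodes an inhibitor of GCN2, rose to 6.47, 8.65 and 8.50 FPKM with oligomycin, against 3.31, 4.18 and 3.13 FPKM with DMSO, a mean 2.23-fold higher (log2 change 0.96, SE 0.16, limma adjusted p = 0.00294), and was called in all 13 alternatives run. Oma1, the mitochondrial protease that in human cells relays mitochondrial stress to HRI, rose to 15.7, 19.0 and 19.4 FPKM with oligomycin, against 13.3, 10.9 and 13.6 FPKM with DMSO (0.49, adjusted p = 0.0271). Prkra, whose product activates PKR, fell to 3.11, 1.56 and 3.43 FPKM with oligomycin, against 6.75, 4.80 and 4.05 FPKM with DMSO (-0.76, adjusted p = 0.0460). Genes of the catalytic subunits of protein phosphatase 1, which dephosphorylates eIF2 among many substrates, included Ppp1cc (-0.56, adjusted p = 0.0182) and Ppp1ca (-0.41, adjusted p = 0.0485), which fell. Ppp1r15a, which encodes GADD34, the subunit that directs this phosphatase to eIF2, had 15.8, 19.0 and 11.5 FPKM with oligomycin, against 8.36, 11.2 and 10.5 FPKM with DMSO, above in each library (0.56, adjusted p = 0.0515). Ppp1r15a was called in 4 of 13 alternatives, under quantile normalization (0.0449), with equal sums without small RNA rows (0.0266), without rows that share a locus or name several genes (0.0374) and without oligomycin replicate 3 (0.0211).

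Several of these calls were lost when 1 library was left out. Oma1 and Ppp1ca were called only without oligomycin replicate 1 (adjusted p = 0.0162 and 0.0243) among the fits that leave out a library, and otherwise stood at 0.0542 to 0.0916 and 0.114 to 0.135. Ppp1ca was also lost under quantile normalization (0.135) and with equal sums without small RNA rows (0.0753). Prkra was called without oligomycin replicate 1 or 3 and lost when any DMSO library or oligomycin replicate 2 was left out (0.0574 to 0.149). It was also lost in 4 of its 6 other alternatives (up to 0.0636), and Ppp1cc was lost when DMSO replicate 1, DMSO replicate 3 or oligomycin replicate 3 was left out (0.0519 to 0.0711).

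Downstream of eIF2, 7 of 8 transcripts of the integrated stress response rose and 0 fell, where 14% of all genes tested rose. The list was chosen with earlier results of these data known, and its median log2 change was 1.69, against -0.00 over all genes tested. The largest was Trib3, a pseudokinase gene, with 37.0, 53.7 and 38.5 FPKM with oligomycin, against 6.19, 8.75 and 7.13 FPKM with DMSO (2.39, SE 0.17, limma adjusted p = 6.82e-05). Atf5, Ddit3, Chac1 and Sesn2, a factor like ATF4, the CHOP gene, a glutathione-degrading enzyme and a leucine sensor, rose by 2.34, 2.02, 1.71 and 1.67. The rows of Atf5 and Ddit3 share their loci with other rows, so their levels are less certain. Atf4 itself, whose mRNA is translated more when eIF2 is phosphorylated, rose to 306, 254 and 257 FPKM with oligomycin, against 173, 193 and 182 FPKM with DMSO (0.57, SE 0.13, adjusted p = 0.0122). Asns, asparagine synthetase, rose by 0.87 (adjusted p = 0.0187). The gene not called was Atf3, a further stress-induced factor, with 9.86, 6.23 and 5.89 FPKM with oligomycin, against 5.36, 7.28 and 3.29 FPKM with DMSO (0.42, adjusted p = 0.251), and its groups overlapped. The call of Atf4 was lost without DMSO replicate 1 (0.0542) or DMSO replicate 3 (0.0540), and that of Asns when DMSO replicate 2, DMSO replicate 3 or oligomycin replicate 3 was left out (0.0533 to 0.0684). mRNA levels do not measure the phosphorylation of eIF2 or the rate of translation.

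**Figure D5:**
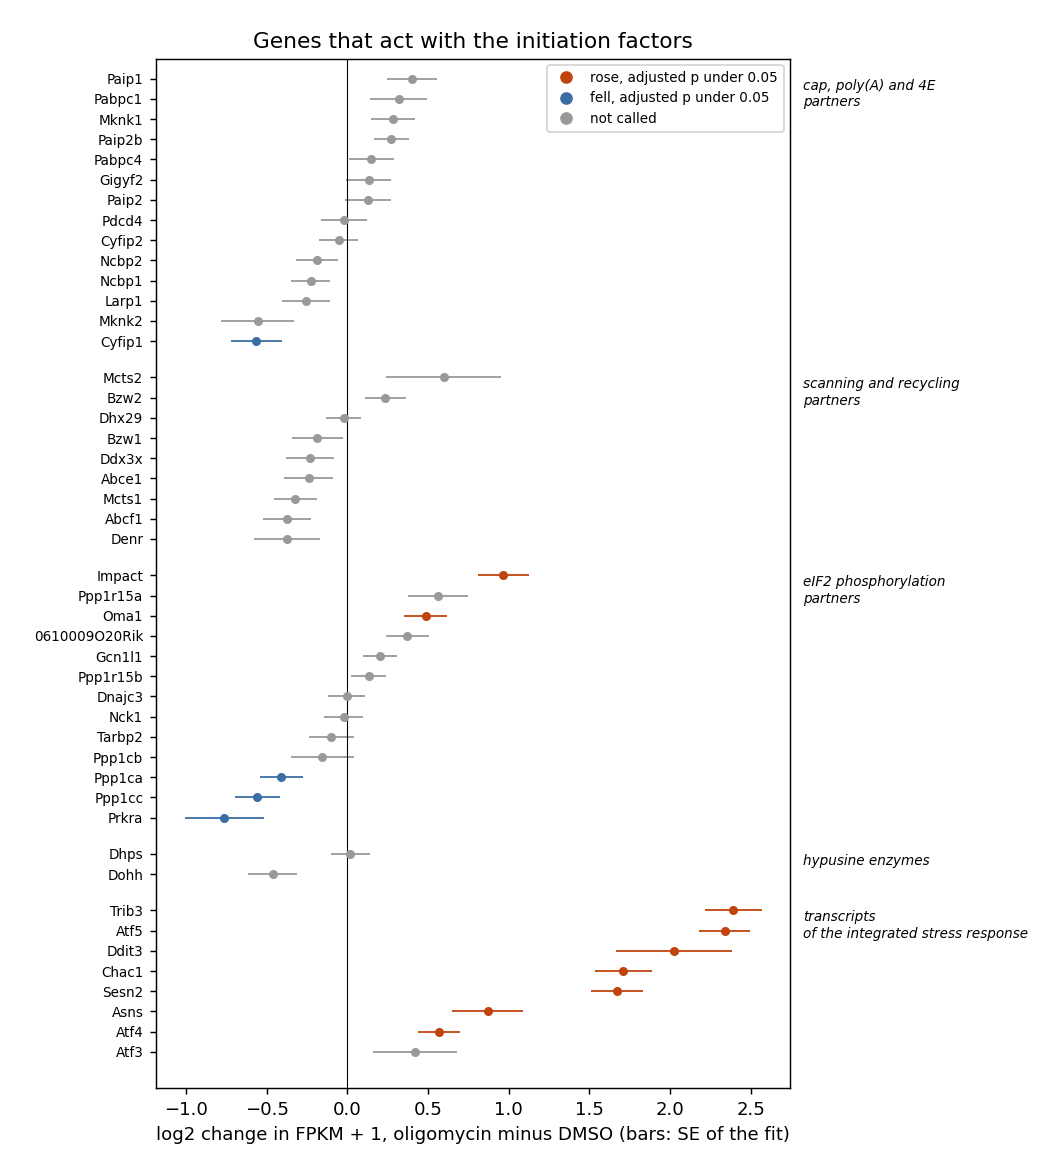
Log2 change in FPKM + 1, oligomycin minus DMSO, with the SE of the limma fit (n = 3 per group), for 46 genes by list. These are partners of the initiation factors and transcripts of the integrated stress response. Of the integrated stress response genes 7 of 8 are past an adjusted p of 0.05 and positive, while the partners of the factors lie between -0.76 for Prkra and 0.96 for Impact.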

How the data were processed

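RNA-seq was measured in 6 libraries. Total RNA came from a Qiagen column kit, per the labels' protocols. The authors deposited FPKM, 1 value per gene row and library, and the submitters' processing notes name Cuffdiff (2.2.1.3), Cuffnorm (2.2.1.1), Cufflinks (2.2.1.0), TopHat2 (2.1.0) and the build GRCm38 (mm10). The sources used here do not give the annotation, strand, filters or scaling between libraries. Column names carry the group and a number that is on no sample title, so columns were mapped to groups only. Low values showed no common step, so depth is unknown.

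Genes with at least 1 FPKM in at least 3 libraries (9986 of 10041 rows) entered limma 3.58.1 in R 4.3.3 as log2(FPKM + 1), with the group as the only term and an intensity trend. The p-values are 2-sided and adjusted by Benjamini-Hochberg over these genes. The procedure was tested on simulated data. The pseudocount understates changes of low genes. Folds are ratios of group means, and errors are SD or the SE of the fit. FPKM ratios and subunit means were tested by exact 2-sided permutation. The members and lists were chosen with earlier results of these data known. Named were all called members, the members of eIF2, its kinases, eIF2B, eIF4F and the 4E-BPs, and from each partner list the called genes and the 3 with the smallest p; other members are given as values or ranges. Eif2ak2, Ppp1r15a and the rows that share a member's locus were named after their values were seen. Starts are printed counted from 1. Shared 50-base words were counted between each member's longest coding transcript and all GENCODE M21 transcripts. RefSeq promoter entries (GRCm38.p6) matched 43 of 54 members by symbol or synonym. Alternatives were quantile normalization, a pseudocount of 0.1, a minimum of 5 FPKM or none, equal sums without 157 small RNA rows, no intensity trend, leaving out rows that share a locus or name several genes, and leaving out each library. One listed marker gene is not reported here.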

Additional observations from a re-analysis of the deposited data

How the results depend on the processing

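Of all genes 3013 were called, 1769 to 3248 when 1 library was left out (780 to 1387 risen, 989 to 1861 fallen), and 2458 to 3188 under the other alternatives. Members called numbered 13, and 2 to 17 when 1 library was left out (1 to 6 risen, 1 to 11 fallen). Under quantile normalization 11 members rose and 4 fell, and the cause was not tested. Partner genes called, with those of the integrated stress response list, numbered 13, and 7 to 18 when 1 library was left out. Some log2 changes near 0, none of them called, changed sign. With equal sums without small RNA rows these were Eif2ak3 (0.0058), Eif2s3x (0.035), Eif2b3 (0.10), Eif1b (0.0053), Eif3a (0.041) and Eif4g2 (0.051). Under quantile normalization they were Eif2b3 (0.072), Eif1b (0.048), Eif3a (0.14), Eif3d (0.090), Eif3l (0.10), Eif4g2 (0.15) and Eif6 (0.082). Leaving out 1 library gave ranges of -0.21 to 0.063 for Eif2s3x, -0.19 to 0.21 for Eif2b3, -0.17 to 0.037 for Eif1b, -0.31 to 0.0026 for Eif1a, -0.14 to 0.038 for Eif3a, -0.10 to 0.12 for Eif3b, -0.28 to 0.080 for Eif4a1, -0.17 to 0.020 for Eif4g2 and -0.038 to 0.11 for Dhps. No paired analysis was possible because the sample titles give the same numbers to both groups but the column names do not carry them, so which columns form a pair is not known and the fit with a replicate block was not run. With depth unknown, no counting error can be given for any value, and Eif2c3, the lowest member, could not be tested at a minimum of 5 FPKM.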
